A study of Mus musculus with 9 samples.

Results

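The matrix metalloproteinases, the ADAMTS and ADAMTS-like proteins and the tissue inhibitors of metalloproteinases were followed at the transcript level in ST2 cells, a mouse bone marrow stromal line that can be driven toward osteoblasts. Members were the protein-coding genes of the deposited table whose symbols are Mmp, Adamts, Adamtsl or Timp followed by a number. This gave 50 genes of 54532 in the table, 22046 of them protein-coding, namely 22 Mmp, 19 Adamts, 5 Adamtsl and 4 Timp genes. Mmp1a is listed as a polymorphic pseudogene and is therefore not a member. Wild-type ST2 cells received vehicle (Veh), recombinant human Wnt3a at 50 ng/ml (rhWnt3a), or rhWnt3a with OSMI at 20 µM (rhWnt3aOSMI) for 72 h, with 3 libraries in each group. OSMI inhibits OGT, the enzyme that attaches O-GlcNAc to nuclear and cytoplasmic proteins. The sample titles give the last group as both agents, whereas the treatment label names OSMI only, and the titles were followed here. No group received OSMI without rhWnt3a, so an effect of OSMI on cells without added Wnt3a cannot be told apart from its effect in their presence. All values come from 1 established line, and the study calls the libraries of a group biological replicates. Whether they came from separate cultures is not given in the sources used here, so that p-values measure the spread between these libraries, which may be technical.

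Metalloproteinases are zinc enzymes made as inactive precursors, and together they can cut most proteins of the extracellular matrix. Collagenases open fibrillar collagen, gelatinases degrade the unwound chains and basement membrane collagen, stromelysins cut a wide range of matrix proteins and activate other precursors, and membrane-type enzymes act at the cell surface. ADAMTS enzymes cleave large proteoglycans such as aggrecan and versican or trim procollagens, ADAMTS-like proteins lack the catalytic domain, and TIMPs bind and block the active enzymes. In bone, Mmp13 is known as the osteoblast collagenase, and Mmp14 at the cell surface activates pro-Mmp2 with Timp2 as a bridge.

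Among the results below, a set of neighbouring genes on chromosome 9 stands first, because its promoters show a feature that the choice of members did not use. On the GRCm38 build, the interval chr9:7272514-7699585, 427 kb long, holds 9 protein-coding genes, and all 9 are Mmp members, in the order Mmp13, Mmp12, Mmp1b, Mmp3, Mmp10, Mmp8, Mmp27, Mmp20 and Mmp7. This interval was singled out after its values had been seen. The 250 bases before the RefSeq start on GRCm38.p6 are printed for 4 of its genes with a match to the AP-1 letters TGANTCA and for 2 without, since these 6 genes hold nearly all reads of the interval. All 6 lie on the plus strand, at chr9:7272264-7272513 for Mmp13, chr9:7445572-7445821 for Mmp3, chr9:7502092-7502341 for Mmp10, chr9:7691840-7692089 for Mmp7, chr9:7344147-7344396 for Mmp12 and chr9:7558179-7558428 for Mmp8. Sequences run 5′ to 3′, and capitals mark the AP-1 match and, in Mmp13, also a match to the RUNX letters AACCACA.
Mmp13: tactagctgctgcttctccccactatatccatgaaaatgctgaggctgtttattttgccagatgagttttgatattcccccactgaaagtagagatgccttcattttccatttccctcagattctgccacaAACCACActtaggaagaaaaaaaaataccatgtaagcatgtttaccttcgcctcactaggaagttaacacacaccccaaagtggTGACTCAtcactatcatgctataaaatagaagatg
Mmp3: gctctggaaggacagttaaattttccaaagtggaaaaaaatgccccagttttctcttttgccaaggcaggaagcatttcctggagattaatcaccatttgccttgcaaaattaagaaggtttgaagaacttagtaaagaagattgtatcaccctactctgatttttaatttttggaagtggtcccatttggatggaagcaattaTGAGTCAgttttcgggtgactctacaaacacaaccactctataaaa
Mmp10: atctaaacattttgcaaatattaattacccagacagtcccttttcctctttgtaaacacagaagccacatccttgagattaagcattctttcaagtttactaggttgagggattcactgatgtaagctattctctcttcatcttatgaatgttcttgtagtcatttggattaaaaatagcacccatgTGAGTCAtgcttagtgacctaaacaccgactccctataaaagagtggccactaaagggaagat
Mmp7: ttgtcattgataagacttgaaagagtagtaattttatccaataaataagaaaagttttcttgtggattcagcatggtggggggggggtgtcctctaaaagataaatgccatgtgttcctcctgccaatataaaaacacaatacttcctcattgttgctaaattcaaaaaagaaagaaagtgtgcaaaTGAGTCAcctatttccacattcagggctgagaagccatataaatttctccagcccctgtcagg
Mmp12: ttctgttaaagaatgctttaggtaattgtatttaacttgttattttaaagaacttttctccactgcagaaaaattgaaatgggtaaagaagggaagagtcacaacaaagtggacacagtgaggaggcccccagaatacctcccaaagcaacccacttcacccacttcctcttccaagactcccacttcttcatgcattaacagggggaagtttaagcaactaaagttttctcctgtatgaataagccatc
Mmp8: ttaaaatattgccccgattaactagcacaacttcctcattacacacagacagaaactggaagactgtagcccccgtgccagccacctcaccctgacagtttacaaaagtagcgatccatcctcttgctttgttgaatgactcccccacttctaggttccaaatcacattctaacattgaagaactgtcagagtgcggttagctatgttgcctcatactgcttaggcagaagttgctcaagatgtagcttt
The first letter of the AP-1 match lay 35 bases before the start in Mmp13, 46 in Mmp3, 63 in Mmp10 and 63 in Mmp7. Mmp1b and Mmp20 also held a match, at 93 and 95 bases before the start. In TGANTCA the N stands for any base, and the match of Mmp20 reads TGAATCA, whereas the others read TGAGTCA or TGACTCA. Of the 35 members with a RefSeq promoter, these 6 were the members with the AP-1 letters, and all 6 belong to the chromosome 9 interval. On either strand the letters occur in 6.75% of 32851 promoters of the same length. The 6 genes are neighbours of the same family and not separate draws, so this share is given for scale and not as a test. The RUNX letters occurred in Mmp13 and Mmp27, 119 and 62 bases before the start, against 4.40% of all promoters. The TCF/LEF letters ATCAAAG occurred in 0 of the 35, against 3.21%. A match says only that the letters are present, and a window without one says nothing about the factor.

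Library totals were 16135898 to 17583945 counts. Of the 50 members, 32 had enough reads to be tested. The 18 that were not comprised 7 at 0 in every library (Adamts3, Adamts8, Adamts13, Adamts19, Adamtsl2, Mmp1b and Mmp25) and 11 with at most 12 counts in any library (Adamts15, Adamts16, Adamts17, Adamts18, Adamts20, Mmp7, Mmp10, Mmp20, Mmp21, Mmp24 and Mmp27). Axin2, a Wnt target gene, was at 0.244 to 0.892 CPM (counts scaled to the effective library size, so that all libraries sum to about the same total) in Veh, 16.8 to 21.6 in rhWnt3a and 10.6 to 17.3 in rhWnt3aOSMI, in the direction the labels give. Veh replicate 3, rhWnt3a replicate 2 and rhWnt3aOSMI replicate 3 each stood apart from the other pair of their group over all genes, and over the 32 tested members they were the lowest in 19, the lowest in 21 and the highest in 20. The 6 stromal markers summed to 18128 to 24721 CPM in Veh, 14622 to 17741 in rhWnt3a and 8215 to 15758 in rhWnt3aOSMI. Of the 6 blood cell markers, Itgam was at 0 in every library and Ptprc, Adgre1 and Csf1r did not exceed 0.344 CPM. The other 2, Cd68 and Lyz2, had enough reads to be tested. Under the rule given below, Lyz2 was lower in rhWnt3aOSMI than in Veh. The 6 summed to 6.60 to 11.0, 2.69 to 3.04 and 0.991 to 4.60 CPM. The 4 endothelial markers together stayed at or below 1.28 CPM. Cartilage markers summed to 307 to 435 CPM in Veh, 93.8 to 120 in rhWnt3a and 78.5 to 128 in rhWnt3aOSMI. Fat cell markers summed to 43.5 to 51.9, 10.4 to 13.1 and 11.9 to 14.8 CPM, and markers of dividing cells to 54.5 to 79.7, 26.6 to 33.1 and 48.3 to 107 CPM. The part of these marker shifts in the member results was not tested, and in bulk RNA fewer cells of a type cannot be told apart from less RNA per cell.

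The first question was how 72 h of rhWnt3a moved the families. A gene was called changed at an adjusted p below 0.05 in edgeR's quasi-likelihood test, with Benjamini-Hochberg adjustment over 14004 genes, and a log2 fold change beyond 0.5. Under this rule 11 of the 32 tested members (34.4%) changed between Veh and rhWnt3a, against 8.78% of all tested genes. Timp3, Mmp13, Mmp3, Mmp12, Mmp8, Mmp28 and Adamts5 rose, where 2.92% of all genes rose. Mmp2, Timp4, Adamts10 and Adamtsl4 fell, where 5.86% of all genes fell. The median log2 difference of the tested members was 0.19, beside 0.04 over all tested genes. The library values of the groups did not overlap for 10 members with rhWnt3a above and 7 with rhWnt3a below, where 12.2% and 14.2% of all genes behaved so (26.4% together).

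When OSMI was given with rhWnt3a, 6 members (18.8%) changed relative to rhWnt3a alone, against 4.74% of all tested genes. All 6 fell, namely Mmp2, Mmp3, Mmp12, Mmp13, Adamts1 and Adamts4, where 3.05% of all genes fell and 1.69% rose. No member rose in this edgeR fit or by DESeq2, whereas 2 did at an unadjusted p and 2 in edgeR with no filter on low counts. The members' median log2 difference was -0.66, beside -0.02 over all tested genes. The groups did not overlap for 4 members above and 12 below, against 16.7% and 17.0% of all genes (33.7% together). Relative to Veh, rhWnt3aOSMI differed in 10 members (31.2%), against 14.2% of all genes. Timp3 and Mmp28 were higher (4.84% of all genes), and Mmp2, Mmp12, Mmp17, Adamts2, Adamts4, Adamts10, Adamtsl5 and Timp4 were lower (9.34%). The median log2 difference here was -0.51, beside -0.01 over all genes, with 4 members above and 9 below without overlap, against 19.3% and 19.5% (38.8% together). In all, 16 members changed in at least 1 comparison and 16 in none. These counts include Timp4, Mmp12 and Mmp8, which passed the read filter through the groups where they were high. The 3 comparisons share libraries, so that their values are given side by side and are not independent of each other.

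**Figure D1:**
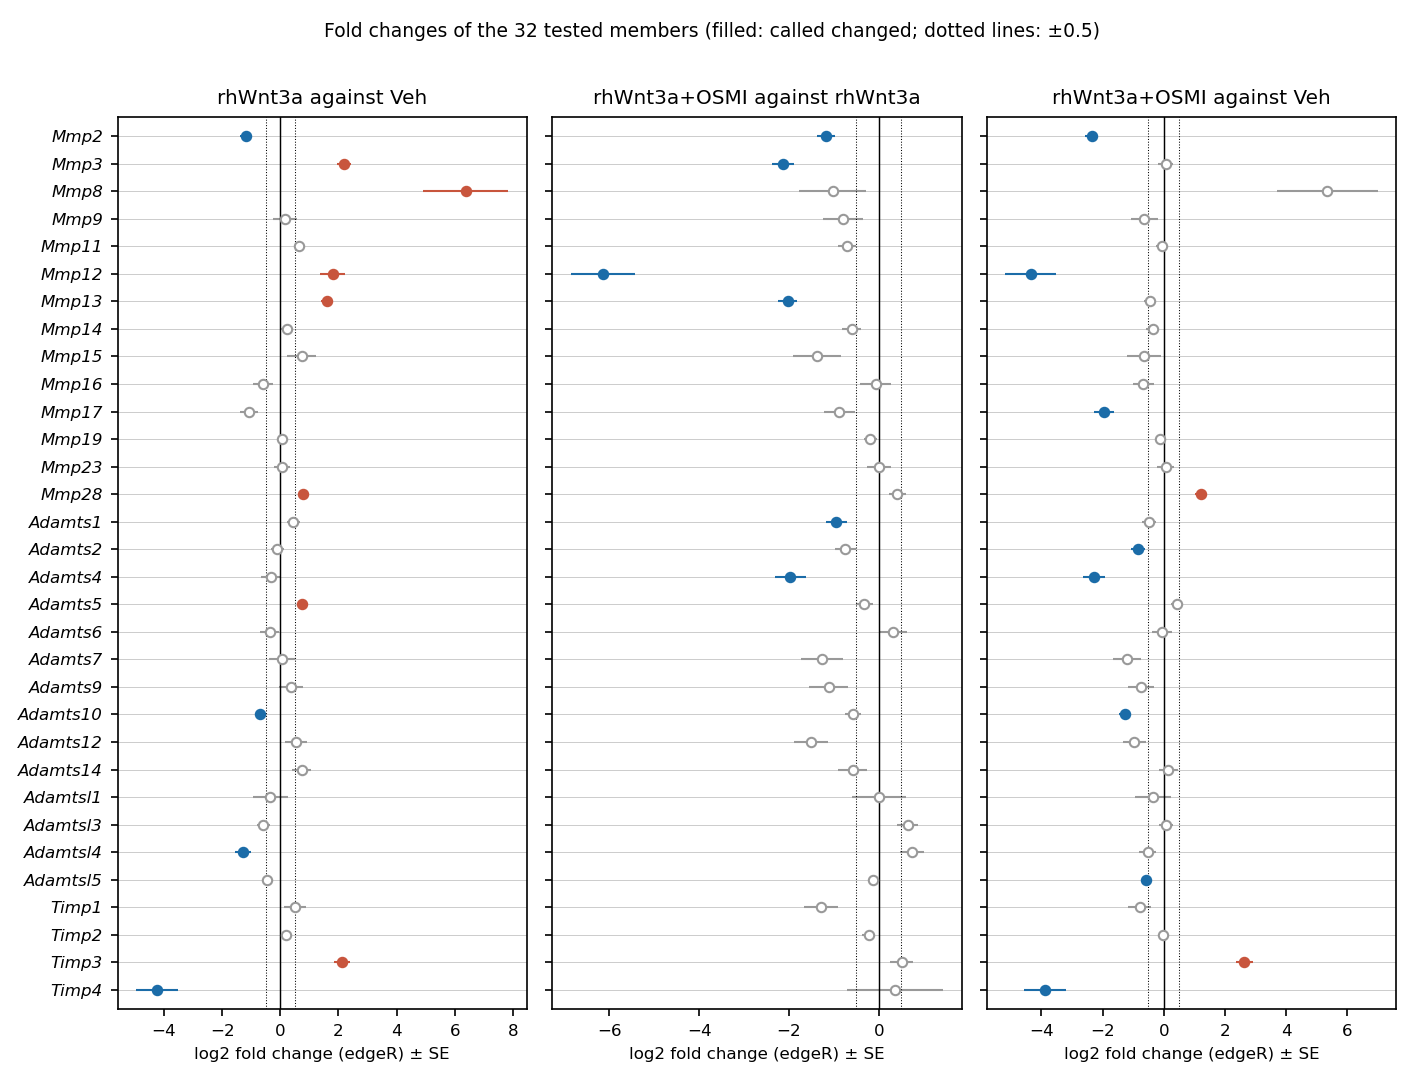
The log2 fold changes of the 32 tested members (horizontal axes, edgeR estimate with bars of 1 SE) are plotted for the 3 comparisons, with filled points for called members and dotted lines at 0.5 on either side of 0. Filled points lie on both sides of 0 for rhWnt3a against Veh and only below 0 for rhWnt3aOSMI against rhWnt3a, and the Mmp8 points against Veh rest on a Veh group without a read, so that their place depends on the prior count.

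Of the 4 TIMPs, Timp3 rose and Timp4 fell. Timp3 (ENSMUSG00000020044, chr10:86300372-86349506) encodes the inhibitor that binds to the matrix and also blocks several ADAMTS enzymes. Its level was 1203, 1825 and 1907 CPM in the 3 Veh libraries, 8574, 4873 and 8101 in rhWnt3a, and 10580, 11130 and 9026 in rhWnt3aOSMI. The 3 groups did not overlap, although rhWnt3a replicate 2 lay well under its companions. Timp3 rose with rhWnt3a by a log2 fold change of 2.13 ± 0.27 (SE, adjusted p = 9.39e-04). With OSMI it was 2.64 ± 0.28 above Veh on the log2 scale (adjusted p = 2.65e-04), and 0.51 ± 0.26 above rhWnt3a, which did not pass the test (adjusted p = 0.273). Timp3 reads made up 0.120 to 0.192% of all counts in Veh, 0.493 to 0.838% in rhWnt3a and 0.927 to 1.14% in rhWnt3aOSMI. Ordered by counts among all genes, Timp3 stood at rank 35 to 58 in Veh, 6 to 9 in rhWnt3a and 3 in each rhWnt3aOSMI library. It lies opposite Syn3, with 1733 shared exonic bases in GENCODE M21 (21.3% of its exonic bases), but Syn3 had 615 counts over the 9 libraries beside 967900 for Timp3.

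None of the other TIMPs rose under this rule in any comparison, at an unadjusted p, or by DESeq2. Timp2, the partner of Mmp14, was at 1737, 1958 and 1678 CPM in Veh, 2154, 1834 and 2217 in rhWnt3a, and 1741, 1718 and 1851 in rhWnt3aOSMI. These groups overlapped, and none of its log2 differences (0.21 ± 0.15, -0.22 ± 0.15 and -0.02 ± 0.15, in the order rhWnt3a against Veh, rhWnt3aOSMI against rhWnt3a, rhWnt3aOSMI against Veh) passed the test. Timp1, a secreted inhibitor of broad range, was at 60.04, 64.0 and 94.8 CPM in Veh, 86.9, 137 and 86.8 in rhWnt3a, and 56.1, 52.4 and 18.4 in rhWnt3aOSMI. Every rhWnt3aOSMI library of Timp1 was below every other library, but the log2 difference from rhWnt3a of -1.29 ± 0.38 did not pass (adjusted p = 0.0851). Timp4 was rare and was counted at 26, 19 and 17 reads in Veh, 1, 0 and 2 in rhWnt3a, and 2, 2 and 0 in rhWnt3aOSMI. Veh and rhWnt3a therefore differed by a ratio of 21.1 (95% counting interval 6.89 to 105), and Timp4 fell in both treated groups, with 2 of the 3 rhWnt3a reads in replicate 3 (adjusted p = 0.00462 for rhWnt3a and 0.00450 for rhWnt3aOSMI, each against Veh). Only the reads of Veh, where Timp4 was high, brought it past the read filter, so that these p-values are not free of that choice.

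**Figure D2:**
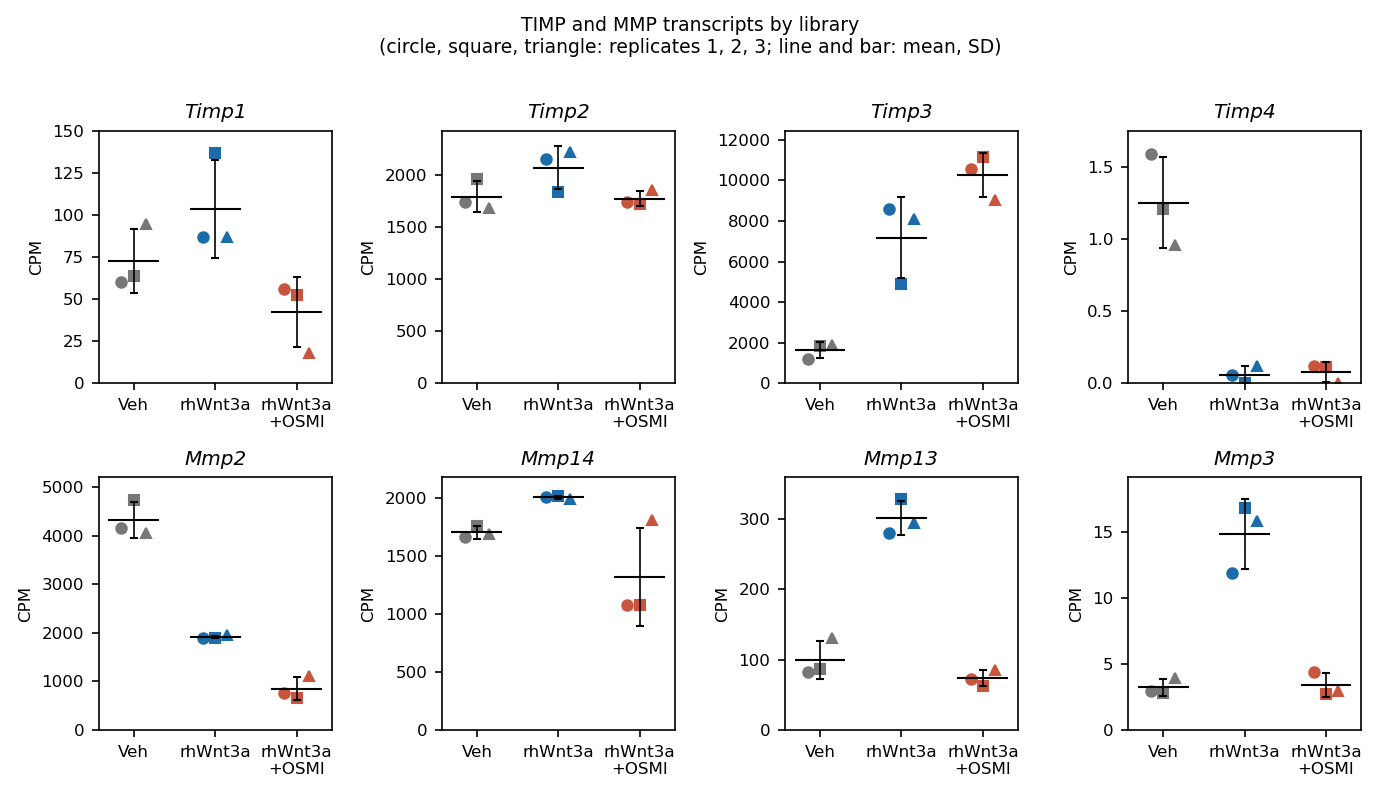
CPM of the 4 Timp genes, Mmp2, Mmp14, Mmp13 and Mmp3 (vertical axes, each from 0) is shown for every Veh, rhWnt3a and rhWnt3aOSMI library, with the mean as a line and the SD as a bar (n = 3). Timp3 and Mmp2 step in opposite directions over the 3 groups, whereas Mmp13 and Mmp3 are high in the rhWnt3a libraries alone.

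Gelatinases were represented by Mmp2 (ENSMUSG00000031740, chr8:92827291-92853420), which fell at both steps. It stood at 4168, 4746 and 4056 CPM in Veh, 1894, 1902 and 1946 in rhWnt3a, and 756, 667 and 1116 in rhWnt3aOSMI. No library of one group reached the range of another. The log2 fold change was -1.18 ± 0.20 for rhWnt3a against Veh (adjusted p = 0.00544), -1.18 ± 0.20 for rhWnt3aOSMI against rhWnt3a (adjusted p = 0.0124) and -2.35 ± 0.21 for rhWnt3aOSMI against Veh (adjusted p = 1.15e-04). The call against rhWnt3a was lost when rhWnt3a replicate 1 or 3 or rhWnt3aOSMI replicate 1 or 2 was left out (adjusted p 0.0505 to 0.0798). Mmp9, the other gelatinase, was low, with means of 1.24 ± 0.740, 1.40 ± 0.387 and 0.799 ± 0.159 CPM (SD, n = 3) in Veh, rhWnt3a and rhWnt3aOSMI, and was not called.

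Of the collagenases and stromelysins in the chromosome 9 interval, Mmp13 and Mmp3 rose with rhWnt3a and fell from there to rhWnt3aOSMI. Mmp13 (ENSMUSG00000050578, chr9:7272514-7283331) was at 82.3, 85.9 and 131 CPM in Veh, 280, 328 and 295 in rhWnt3a, and 72.9, 62.8 and 85.1 in rhWnt3aOSMI. All rhWnt3a libraries were above all others, and the ranges of Veh and rhWnt3aOSMI overlapped. Mmp13 rose by a log2 fold change of 1.59 ± 0.20 with rhWnt3a (adjusted p = 8.60e-04) and was lower by -2.03 ± 0.20 with OSMI added (adjusted p = 0.00149), leaving -0.44 ± 0.20 against Veh (adjusted p = 0.165). Mmp3, stromelysin-1 (ENSMUSG00000043613, chr9:7445822-7455975), had the same order at a lower level, with 2.93, 2.80 and 3.96 CPM in Veh, 11.9, 16.8 and 15.8 in rhWnt3a, and 4.41, 2.75 and 2.97 in rhWnt3aOSMI. Its log2 fold changes were 2.19 ± 0.25 (adjusted p = 4.51e-04), -2.13 ± 0.24 (adjusted p = 0.00208) and 0.06 ± 0.25 (adjusted p = 0.896) in the same 3 comparisons. For both enzymes the rhWnt3aOSMI libraries overlapped the range of Veh. Both have an AP-1 match in the promoter windows printed above, and any part of the match in these levels was not tested. Mmp12, whose window holds no match, also rose with rhWnt3a and fell from there. Mmp1b and Mmp20 hold a match and had at most 2 reads in any library.

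Mmp12, the macrophage elastase, was counted at 12, 5 and 10 reads in Veh, 26, 45 and 26 in rhWnt3a, and 0, 1 and 0 in rhWnt3aOSMI. Its rise with rhWnt3a had a log2 fold change of 1.80 ± 0.44 (adjusted p = 0.0303), a call that was lost when any 1 of the 6 Veh or rhWnt3a libraries was left out (adjusted p 0.0614 to 0.133). Set against rhWnt3aOSMI, the rhWnt3a libraries held 97.7 times as many Mmp12 reads (95% counting interval 17.1 to 3899; adjusted p = 0.00214) and the Veh libraries 27.7 times as many (4.57 to 1136; adjusted p = 0.00694). The single rhWnt3aOSMI read was in replicate 2, so that without this library the group held none. Mmp12 passed the read filter through its rhWnt3a libraries, where it was highest, so that its p-values are not free of that choice. Mmp8, the neutrophil collagenase, had 0 reads in each Veh library, 6, 13 and 12 in rhWnt3a, and 11, 3 and 1 in rhWnt3aOSMI. With 3 counts per library as the floor, rhWnt3a was at least 3.35-fold higher than Veh (adjusted p = 0.0328), and this call too was lost when any 1 of the 6 Veh or rhWnt3a libraries was left out (adjusted p 0.0592 to 0.0975). Treated libraries alone brought Mmp8 past the read filter.

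Within the same interval, Mmp7 and Mmp10 had too few reads for the test and are described because of the values seen. Matrilysin, Mmp7, had 1, 0 and 3 reads in Veh, 7, 12 and 10 in rhWnt3a, and 0, 1 and 0 in rhWnt3aOSMI, a ratio of rhWnt3a to rhWnt3aOSMI of 29.2 (95% counting interval 4.84 to 1193). Stromelysin-2, Mmp10, had no read in Veh, 6, 9 and 5 in rhWnt3a, and 1, 0 and 1 in rhWnt3aOSMI. For Mmp10 rhWnt3a was at least 2.16-fold above Veh at a floor of 3 counts per library and 10.1 times as high as rhWnt3aOSMI (2.45 to 88.9). Summed over the libraries of each group, Mmp27 had 5, 13 and 8 reads, Mmp20 had 2, 0 and 2, and Mmp1b had none. Summed reads were thus highest in rhWnt3a for 7 of the 9 genes, with Mmp27 at few reads in every group. The share of all genes with this order was not computed, and the interval was chosen after its values were seen. No joint response of the interval can be read from this number. These counting intervals cover counting error only.

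**Figure D3:**
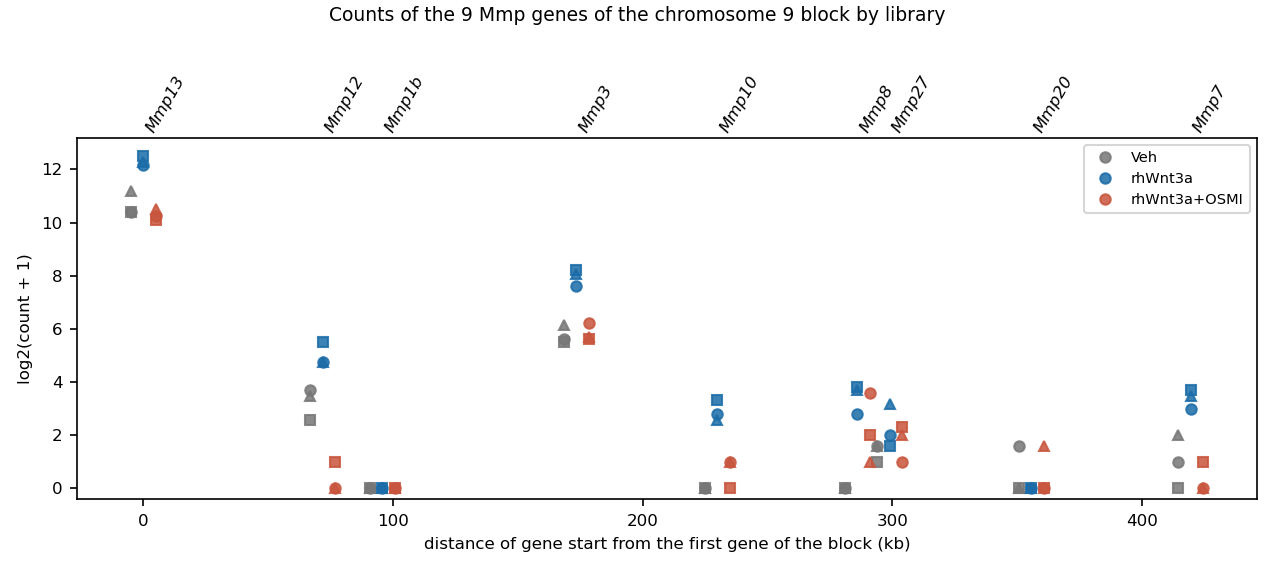
The count of each of the 9 Mmp genes of the chromosome 9 interval is drawn as log2(count + 1) against the distance of the gene start from that of Mmp13 in kb, with 1 symbol per library (circle, square and triangle for replicates 1, 2 and 3) and a colour per group. For Mmp13, Mmp12, Mmp3, Mmp10 and Mmp7 the 3 rhWnt3a libraries lie above all libraries of the other groups. The share of all genes with this order was not computed, and the interval was chosen after its values were seen.

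Of the 4 tested membrane-type enzymes Mmp17 alone was called, and in 1 comparison. Mmp14 (ENSMUSG00000000957, chr14:54431612-54445364) was at 1660, 1761 and 1685 CPM in Veh, 2010, 2013 and 1991 in rhWnt3a, and 1079, 1077 and 1809 in rhWnt3aOSMI. Its rhWnt3a libraries were above all others, yet neither the log2 difference from Veh (0.24 ± 0.21, adjusted p = 0.644) nor that of rhWnt3aOSMI from rhWnt3a (-0.60 ± 0.21, adjusted p = 0.131) passed the test. For this gene rhWnt3aOSMI replicate 3 stood well above its companions. Mmp17, which is anchored by a lipid tail, was at 2.08, 1.91 and 1.53 CPM in Veh, 0.730, 0.739 and 1.14 in rhWnt3a, and 0.423, 0.517 and 0.466 in rhWnt3aOSMI. Mmp17 was lower in rhWnt3aOSMI than in Veh by a log2 fold change of -1.95 ± 0.33 (adjusted p = 0.00345), while its steps of -1.07 ± 0.30 with rhWnt3a (adjusted p = 0.0578) and -0.88 ± 0.34 from rhWnt3a to rhWnt3aOSMI (adjusted p = 0.172) did not pass. Mmp15 and Mmp16, the remaining tested enzymes of this kind, were not called. Mmp15 averaged 0.899 ± 0.357, 1.49 ± 0.884 and 0.571 ± 0.196 CPM and Mmp16 7.88 ± 2.98, 5.20 ± 1.77 and 4.95 ± 0.874 CPM in Veh, rhWnt3a and rhWnt3aOSMI (SD, n = 3).

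Among the remaining Mmp genes, Mmp28, known as epilysin, was higher in both treated groups than in Veh. It was at 48.1, 54.7 and 42.5 CPM in Veh, 91.4, 69.8 and 90.5 in rhWnt3a, and 93.4, 99.2 and 144 in rhWnt3aOSMI, with no overlap between groups. Mmp28 rose by a log2 fold change of 0.79 ± 0.19 with rhWnt3a (adjusted p = 0.0299) and stood 1.21 ± 0.19 above Veh in rhWnt3aOSMI (adjusted p = 0.00268). The first of these calls was lost without any 1 Veh library or without rhWnt3a replicate 1 or 3 (adjusted p 0.0559 to 0.120). Mmp28 shares 12.0% of its exonic bases with 1700020L24Rik, a gene with 2994 counts over the 9 libraries beside its 12377. Mmp11, stromelysin-3, averaged 402 ± 121 CPM in Veh, 635 ± 22.7 in rhWnt3a and 388 ± 33.1 in rhWnt3aOSMI (SD, n = 3). Its rhWnt3a libraries, at 610 to 655 CPM, were above all others, at 290 to 530 CPM, but the log2 differences of 0.66 ± 0.20 (adjusted p = 0.0814) and -0.71 ± 0.20 (adjusted p = 0.0800) did not pass. Mmp19 averaged 60.6 ± 5.79, 63.7 ± 4.61 and 55.7 ± 8.76 CPM and Mmp23 1.73 ± 0.0470, 1.81 ± 0.308 and 1.81 ± 0.403 CPM in the 3 groups, and for neither did any comparison pass.

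Of the 4 tested ADAMTS enzymes that cleave proteoglycans, Adamts5 rose with rhWnt3a, and Adamts1 and Adamts4 fell from rhWnt3a to rhWnt3aOSMI. Adamts4, known as aggrecanase-1 (ENSMUSG00000006403, chr1:171250421-171260637), was at 140, 127 and 94.7 CPM in Veh, 106, 81.1 and 103 in rhWnt3a, and 19.3, 13.9 and 40.9 in rhWnt3aOSMI. The rhWnt3aOSMI libraries were below all others, and Veh and rhWnt3a overlapped. Adamts4 was not called with rhWnt3a (log2 difference -0.32 ± 0.33, adjusted p = 0.713), and in rhWnt3aOSMI it was lower than in rhWnt3a by -1.97 ± 0.35 (adjusted p = 0.0134) and lower than in Veh by -2.29 ± 0.35 (adjusted p = 0.00215). Leaving out rhWnt3a replicate 1 or 3 or rhWnt3aOSMI replicate 1 or 2 ended the call against rhWnt3a (adjusted p 0.0502 to 0.0755). Adamts5, aggrecanase-2, rose with rhWnt3a, from 198, 200 and 217 CPM in Veh to 360, 305 and 370 in rhWnt3a, and was at 247, 223 and 358 in rhWnt3aOSMI. Its log2 fold change of 0.75 ± 0.18 (adjusted p = 0.0313) was no longer called without any 1 Veh library, rhWnt3a replicate 1 or 3 or rhWnt3aOSMI replicate 1 (adjusted p 0.0503 to 0.138). Relative to rhWnt3a, Adamts5 in rhWnt3aOSMI differed by -0.32 ± 0.18 and relative to Veh by 0.43 ± 0.18, and neither passed (adjusted p = 0.325 and 0.147).

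Adamts1, which cleaves versican and aggrecan, was at 191, 181 and 188 CPM in Veh, 271, 220 and 275 in rhWnt3a, and 108, 100 and 190 in rhWnt3aOSMI. Its log2 fold change of -0.94 ± 0.23 from rhWnt3a to rhWnt3aOSMI lay close to the threshold (adjusted p = 0.0462), and it was lost without any 1 library other than rhWnt3aOSMI replicate 3 (adjusted p 0.0524 to 0.167). Adamts9 averaged 5.36 ± 2.41, 6.90 ± 1.86 and 3.18 ± 1.79 CPM in the 3 groups (SD, n = 3) and was not called. Of the procollagen N-proteinases, Adamts2 was at 340, 386 and 323 CPM in Veh, 352, 267 and 361 in rhWnt3a, and 162, 152 and 272 in rhWnt3aOSMI. It was lower in rhWnt3aOSMI than in Veh by a log2 fold change of -0.84 ± 0.23 (adjusted p = 0.0351), and this was lost without any 1 Veh library, rhWnt3a replicate 1 or 3 or rhWnt3aOSMI replicate 1 or 2 (adjusted p 0.0514 to 0.146). Adamts14, its relative, averaged 14.1 ± 4.67, 23.5 ± 7.49 and 15.7 ± 4.41 CPM and passed no test.

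Adamts10, a protease linked to fibrillin microfibrils, was lower in both treated groups than in Veh, at 25.4, 31.98 and 23.2 CPM in Veh, 18.0, 14.4 and 17.3 in rhWnt3a, and 10.2, 10.04 and 13.0 in rhWnt3aOSMI, without overlap. The log2 fold change was -0.70 ± 0.18 for rhWnt3a against Veh (adjusted p = 0.0345) and -1.28 ± 0.18 for rhWnt3aOSMI against Veh (adjusted p = 0.00128). The step from rhWnt3a to rhWnt3aOSMI, -0.58 ± 0.18, did not pass (adjusted p = 0.0951), and the call with rhWnt3a was lost without any 1 library other than Veh replicate 3 and rhWnt3aOSMI replicate 3 (adjusted p 0.0556 to 0.168). Adamts12, which can degrade cartilage oligomeric matrix protein, averaged 61.8 ± 23.0 CPM in Veh, 89.8 ± 26.2 in rhWnt3a and 31.6 ± 15.1 in rhWnt3aOSMI, a log2 difference of -1.51 ± 0.38 between the last groups that did not pass (adjusted p = 0.0555). Its libraries ranged from 35.8 to 79.6, 59.7 to 107 and 22.8 to 49.1 CPM, so that rhWnt3aOSMI lay below rhWnt3a without overlap. Adamts7 averaged 9.59 ± 3.70, 9.99 ± 2.65 and 4.17 ± 2.88 CPM and Adamts6 14.3 ± 5.34, 11.1 ± 3.06 and 13.7 ± 3.14 CPM, and neither was called.

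Of the 4 tested ADAMTS-like genes, whose products bind the matrix without cutting it, Adamtsl4 fell with rhWnt3a and Adamtsl5 was lower in rhWnt3aOSMI than in Veh. Adamtsl4, which binds fibrillin-1, was at 87.2, 94.0 and 56.0 CPM in Veh, 37.0, 25.8 and 35.5 in rhWnt3a, and 44.8, 43.2 and 76.3 in rhWnt3aOSMI. It fell with rhWnt3a by a log2 fold change of -1.27 ± 0.27 (adjusted p = 0.0162), and its rhWnt3aOSMI libraries were all above those of rhWnt3a with a difference of 0.74 ± 0.27 that did not pass (adjusted p = 0.144). The call was lost without Veh replicate 1 or 2 or any 1 rhWnt3a library (adjusted p 0.0502 to 0.0761). Adamtsl5 was at 114, 136 and 141 CPM in Veh, 97.8, 95.1 and 91.2 in rhWnt3a, and 83.9, 80.8 and 96.5 in rhWnt3aOSMI. Its log2 fold change was -0.58 ± 0.13 for rhWnt3aOSMI against Veh (adjusted p = 0.0142, lost without Veh replicate 2 or rhWnt3aOSMI replicate 1 or 2 at adjusted p 0.0792 to 0.0857). For Adamtsl5 the difference of rhWnt3a from Veh was -0.46 ± 0.13 (adjusted p = 0.0545). That of rhWnt3aOSMI from rhWnt3a was -0.12 ± 0.13 (adjusted p = 0.585), and neither passed. Adamtsl3 averaged 69.0 ± 9.66, 46.3 ± 14.3 and 72.5 ± 11.2 CPM, with rhWnt3a below both other groups without overlap (29.8 to 55.8 against 59.5 to 84.6 CPM), and passed no test. Adamtsl1 averaged 5.83 ± 3.24, 4.57 ± 2.44 and 4.57 ± 3.06 CPM and was not called.

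**Figure D4:**
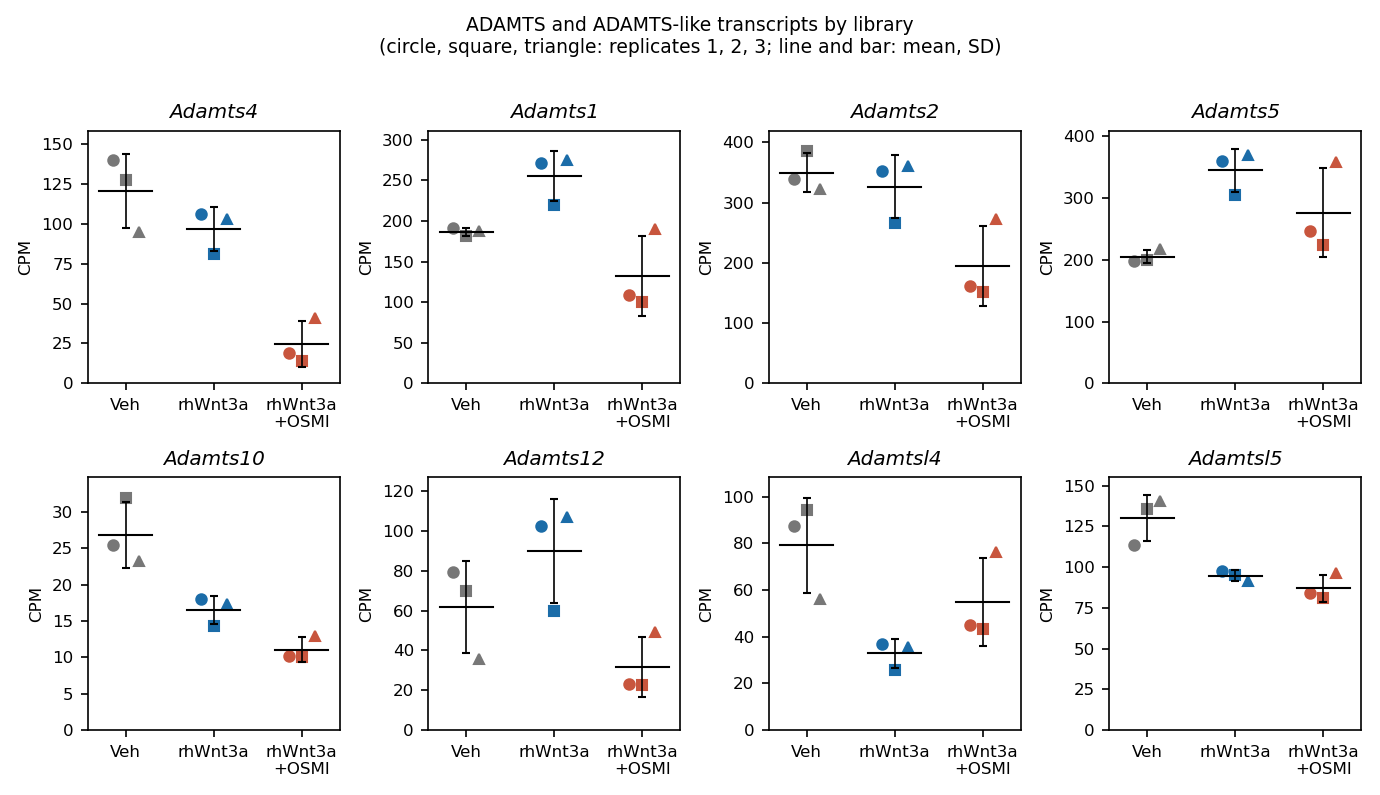
CPM of 6 Adamts and 2 Adamtsl genes (vertical axes, each from 0) is shown for every library, with the mean as a line and the SD as a bar (n = 3 per group). The rhWnt3aOSMI libraries of Adamts4 lie below all Veh and rhWnt3a libraries, the rhWnt3a libraries of Adamts5 above all Veh libraries, and rhWnt3aOSMI replicate 3 is the highest of its group in all 8 panels.

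Levels of different members were compared per length, as FPKM. In Veh the order of mean FPKM was Mmp2 (1266 ± 112, SD, n = 3), Timp2 (454 ± 39.0), Mmp14 (282 ± 8.82), Timp3 (199 ± 45.0), Mmp11 (142 ± 41.3) and Timp1 (81.0 ± 20.3). In rhWnt3a it was Timp3 (863 ± 236), Mmp2 (556 ± 7.80), Timp2 (520 ± 47.1), Mmp14 (329 ± 4.56) and Mmp11 (224 ± 6.11), of which the neighbours Mmp2 and Timp2 differed by less than the SD of Timp2. In rhWnt3aOSMI it was Timp3 (1236 ± 110), Timp2 (447 ± 26.7), Mmp2 (248 ± 74.8), Mmp14 (219 ± 74.6) and Mmp11 (138 ± 12.9), where Mmp2 and Mmp14 differed by less than their SDs. The first place among these families thus passed from Mmp2 in Veh to Timp3 in the treated groups.

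Summed FPKM of the 22 Mmp genes was 1677, 1888 and 1717 in Veh, 1259, 1280 and 1272 in rhWnt3a, and 608, 555 and 875 in rhWnt3aOSMI. That of the 4 Timp genes was 659, 790 and 753 in Veh, 1660, 1212 and 1619 in rhWnt3a, and 1762, 1814 and 1613 in rhWnt3aOSMI. The ratio of Timp to Mmp FPKM was 0.393 to 0.439 in Veh, 0.947 to 1.32 in rhWnt3a and 1.84 to 3.27 in rhWnt3aOSMI, with no overlap between groups. This ratio was not tested. The libraries that stood apart enter these sums, and the gene length correction was not applied to FPKM. Both sums leaned on single genes. Timp3 gave 22.3 to 30.3% of the Timp sum in Veh, 48.9 to 61.8% in rhWnt3a and 69.1 to 73.2% in rhWnt3aOSMI. Mmp2 gave 68.4 to 73.7% of the Mmp sum in Veh, 43.5 to 44.2% in rhWnt3a and 34.7 to 38.0% in rhWnt3aOSMI. These are ratios of transcript levels, and neither enzyme activity nor inhibitor protein was measured in these files.

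**Figure D5:**
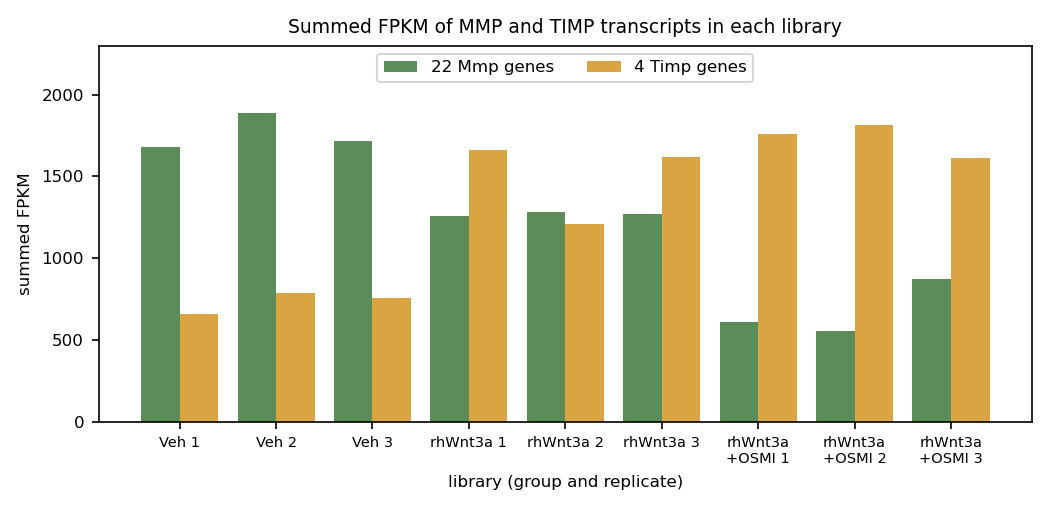
Summed FPKM of the 22 Mmp genes and of the 4 Timp genes (vertical axis, from 0) is drawn as a pair of bars for each of the 9 libraries. The Mmp bar is the taller in all Veh libraries and in rhWnt3a replicate 2, and the Timp bar in the other rhWnt3a and in all rhWnt3aOSMI libraries.

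As a description of likeness over the 9 libraries, which share treatments and the libraries that stood apart, Spearman's rho of log2 CPM was taken between members. The members most like Mmp13 were Mmp14 (0.917), Timp1 (0.833) and Mmp12 (0.803). Those most like Timp3 were Mmp28 (0.900), Adamts5 (0.517) and Mmp8 (0.475). Mmp2 was most like Adamts10 (0.950), Mmp17 (0.933) and Adamts4 (0.867), and Adamts4 was most like Adamts10 (0.933), Adamts2 (0.867) and Mmp2 (0.867).

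Genes that act on or with these families were read from lists outside the rule. Of 10 genes for precursor activation and the plasmin system, 9 were tested, and those named here are Plau, Plat and Pcsk6. Plau, which encodes urokinase, was at 3.18, 2.93 and 2.77 CPM in Veh, 6.21, 7.16 and 5.56 in rhWnt3a, and 1.63, 1.49 and 1.75 in rhWnt3aOSMI. This plasminogen activator rose with rhWnt3a (log2 fold change 1.09 ± 0.19, adjusted p = 0.00597) and fell from there with OSMI (-1.95 ± 0.20, adjusted p = 0.00171), as did Plat, the tissue-type activator (0.84 ± 0.19, adjusted p = 0.0196, and -1.73 ± 0.19, adjusted p = 0.00182). Against Veh, rhWnt3aOSMI was lower for Plau and Plat and higher for Pcsk6, a proprotein convertase (log2 fold change 0.81 ± 0.15, adjusted p = 0.00639). None of the 7 ADAM genes and neither of the 2 tested genes for other inhibitors and clearance, Reck and Lrp1, was called in any comparison by edgeR. At an unadjusted p, 1 ADAM gene was lower in rhWnt3aOSMI than in rhWnt3a and 2 than in Veh, and DESeq2 called 1 in each of these comparisons and no gene of either list otherwise.

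Of 10 AP-1, Ets and Runx factor genes, all tested, Fosl2 and Ets2 rose with rhWnt3a (log2 fold changes 0.88 ± 0.21 and 0.70 ± 0.17, adjusted p = 0.0254 and 0.0303) and Fos fell (-1.59 ± 0.27, adjusted p = 0.00469). Fosl1 was the member of that list called between rhWnt3aOSMI and rhWnt3a, where it rose by 1.25 ± 0.28 (adjusted p = 0.0345). Relative to Veh, rhWnt3aOSMI was higher for Ets2 and Fosl2 and lower for Fos. Runx2 passed in no comparison. Of 4 procollagen processing genes, 3 were tested, and Pcolce, an enhancer of C-proteinase, was lower in rhWnt3aOSMI than in rhWnt3a by a log2 fold change of -1.54 ± 0.16 (adjusted p = 0.00171). Tll1 fell in that comparison too (-1.65 ± 0.33, adjusted p = 0.0237), and Bmp1, the C-proteinase itself, was lower than in Veh (-0.96 ± 0.18, adjusted p = 0.00666).

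Substrates of the enzymes were 11 genes, 10 of them tested. With rhWnt3a 3 fell, namely Col2a1, Comp and Thbs1. From rhWnt3a to rhWnt3aOSMI, Thbs1 rose by a log2 fold change of 1.24 ± 0.22 (adjusted p = 0.0125), and Vcan, the versican gene, and Col3a1 fell by 2.41 and 1.99 on the log2 scale (adjusted p = 0.00377 and 0.0170). Vcan was at 420, 406 and 329 CPM in Veh, 549, 308 and 533 in rhWnt3a, and 64.9, 69.0 and 129 in rhWnt3aOSMI. Relative to Veh, 6 substrates were lower in rhWnt3aOSMI, namely Col1a1, Col2a1, Col3a1, Comp, Fbn2 and Vcan.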

How the data were processed

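RNA of ST2 cells was sequenced in 9 libraries, 3 per group. Per the submitters' processing notes, the tools were CASAVA, fastp, HISAT2 2.0.5 and featureCounts 1.5.0-p3 with the mm10 build, and whether reads were counted by strand is not given in the sources used here. The authors deposited, in 1 table, a raw count and an FPKM value (fragments per kilobase of gene length, scaled to a library size) for each gene and library, with the gene length. The library size implied by the FPKM differed from the summed counts by -4.26% (Veh replicate 2) to 5.32% (rhWnt3aOSMI replicate 2). Columns of the authors' own comparisons (fold changes, p-values) were not used.

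Counts were tested in R 4.3.3 with edgeR 4.0.16 (TMM scaling, filterByExpr with a minimum count of 10, quasi-likelihood test, two-sided, 1 fit over the 9 libraries), with Benjamini-Hochberg adjustment over 14004 genes. The SE of a log2 fold change was taken as its size divided by the square root of the F statistic of the quasi-likelihood test. CPM is the count scaled to the TMM library size, and FPKM was used as deposited to compare genes. The fold threshold of 0.5 (log2) is that of the study's methods. Totals of 16135898 to 17583945 counts put 3 counts, used as the floor, at 0.171 to 0.186 per library on the CPM scale before TMM scaling. Ratios of sums of few counts have exact Poisson intervals (95%). The fit was tested on simulated data. Alternatives were DESeq2 1.42.0, other scalings, filters and thresholds, a gene length correction, a replicate block and leaving out libraries.

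Members and gene lists were chosen with earlier results of these data known. Members called in any comparison, the Timp genes and Mmp2, Mmp3, Mmp13 and Mmp14 are given by library, other members averaging at least 1 CPM in a group by mean and SD, and the rest by name. Promoters were RefSeq windows of GRCm38.p6, available for 35 members, and exon overlaps came from GENCODE M21. The result of 1 gene of the lists is not reported here.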

Additional observations from a re-analysis of the deposited data

How the results depend on the processing

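Of the 27 calls of a member in a comparison, 16 held under every alternative run (up to 21 each), 11 were lost under at least 1, and none reversed. The calls that held throughout were those of Mmp13 and Mmp3 (rhWnt3a against Veh and rhWnt3aOSMI against rhWnt3a), Mmp2, Timp3 and Timp4 (each treated group against Veh), Mmp12 (rhWnt3aOSMI against both), and Adamts4, Adamts10, Mmp17 and Mmp28 (rhWnt3aOSMI against Veh). Among these, Timp4, Mmp12 and Mmp17 had too few reads for the setting with at least 10 counts in every sample. Their calls therefore did not face it, and held in the 19 or 20 alternatives that could be run. All 27 also held without the 3 libraries that stood apart, but these were picked as the most distant of their groups in these same data. Their mean squared log2 difference from their companions was 0.423 (Veh), 0.392 (rhWnt3a) and 0.439 (rhWnt3aOSMI). Within the pairs left it was 0.117, 0.111 and 0.119. Leaving them out thus narrowed the spread, so that keeping the calls there is no independent check. With libraries left out singly, the members called numbered 5 to 11 for rhWnt3a against Veh (11 with all libraries; 5 without Veh replicate 1 or 2 or rhWnt3a replicate 1 or 3, and 7 without rhWnt3a replicate 2), 3 to 10 for rhWnt3aOSMI against rhWnt3a (6 with all; 3 without rhWnt3a replicate 1 or 3 or rhWnt3aOSMI replicate 1 or 2, and 10 without rhWnt3aOSMI replicate 3) and 8 to 16 for rhWnt3aOSMI against Veh (10 with all; 16 without rhWnt3aOSMI replicate 3). Over all genes the ranges were 716 to 1506, 203 to 764 and 1218 to 2328.

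Same-numbered libraries did not deviate together throughout (correlations of deviations for numbers 1, 2 and 3 were 0.44, -0.49 and -0.49 for rhWnt3a against Veh, -0.31, 0.37 and 0.33 for rhWnt3aOSMI against rhWnt3a, and -0.32, -0.20 and -0.41 for rhWnt3aOSMI against Veh), and nothing in the labels ties them. The libraries that stood apart carry different numbers in Veh and rhWnt3a. These correlations therefore cannot exclude a culture or batch shared by number. With the replicate number as a block, 7, 5 and 9 members and 809, 233 and 1297 genes were called in the 3 comparisons, in place of 11, 6 and 10 members and 1230, 664 and 1986 genes. The calls lost with the block were Adamts10, Mmp12, Mmp28 and Mmp8 for rhWnt3a against Veh, Adamts1 for rhWnt3aOSMI against rhWnt3a, and Adamts2 for rhWnt3aOSMI against Veh.

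For rhWnt3aOSMI against rhWnt3a, the members called rose to 15 with no filter on low counts, 10 with DESeq2, 11 with the length correction, 18 without the 3 libraries that stood apart and 18 at an unadjusted p. All genes called there were 1481, 1232 and 1789 with no filter, DESeq2 and without those libraries, 345 with only the 6 libraries compared, 380 at a log2 threshold of 1 and 2271 at an unadjusted p. For rhWnt3aOSMI against Veh, 6 members were called when every sample needed 10 counts and 20 without the 3 libraries, and all genes numbered 3351 without them, 1118 at the threshold of 1 and 3186 unadjusted. For rhWnt3a against Veh all genes numbered 2557 without them, 796 at the threshold of 1 and 2155 unadjusted. The cause of these shifts was not tested. Some log2 differences near 0, none of them called, changed sign when a library was left out. Adamts2 for rhWnt3a against Veh was 0.030 without rhWnt3a replicate 2. Timp4 for rhWnt3aOSMI against rhWnt3a ranged from -0.17 (without rhWnt3a replicate 2; -0.0072 without rhWnt3aOSMI replicate 1) to 1.22, Mmp3 for rhWnt3aOSMI against Veh from -0.14 (without rhWnt3aOSMI replicate 1) to 0.24, and Timp2 for rhWnt3aOSMI against Veh from -0.060 to 0.093, positive without Veh replicate 2, rhWnt3a replicate 1 or 2 or rhWnt3aOSMI replicate 1 or 2. Timp2 there was 0.026 with only the 6 libraries compared and 0.021 with the length correction. Depth limits the members under about 1 CPM, which rest on few reads.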
